A study of Homo sapiens with 12 samples.

Results

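Amino acid transporter genes were followed through 4 groups of SRA01/04 cells, an immortalised human lens epithelial line. The genes are those whose symbols place them in the solute carrier families SLC1, SLC3, SLC7, SLC36, SLC38 and SLC43, 40 of the 60641 symbols counted. Of these 40 genes, 24 passed edgeR's filter on low counts and were tested together with all other genes, 17889 in all. The cells had received 1,2-DHN and asparagine (DHN-A), 1,2-DHN alone (DHN), asparagine alone (NC-A) or neither (NC), and RNA was taken after 24 hours from 3 libraries per group. 1,2-DHN is 1,2-dihydroxynaphthalene, a metabolite of naphthalene that oxidises to a quinone, and naphthalene is a long-used agent for producing cataract in animals. The sources used here do not give the doses, the order in which both agents were added or the medium. All groups came from 1 cell line. Nothing says that the libraries of a group came from separate cultures, so p-values measure the spread between these libraries, which may be technical.

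Amino acids cross membranes on carriers that differ in what drives them. The sodium gradient lets the SLC1 carriers of glutamate and aspartate load the cell. Most SLC38 carriers use it for neutral amino acids such as alanine, serine, glutamine or asparagine. SLC1A5 depends on sodium too but is an exchanger. Some SLC36 carriers use protons, and SLC43 carriers let large neutral amino acids flow down their gradient. Most SLC7 light chains are exchangers that reach the plasma membrane only when bound to a glycoprotein heavy chain of the SLC3 family, so SLC3A2 is shared by several transport activities, while the cationic carriers of SLC7 work without it. Several of these genes are textbook targets of ATF4, the transcription factor of the amino acid response, and SLC7A11 is also a target of NRF2, the factor that answers oxidants and electrophiles. In the lens, cystine uptake through SLC7A11 and glutamate carriers supplies the synthesis of glutathione.

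Promoter sequences are shown as examples for 3 genes that rose in DHN against NC. Each holds the core letters of an element known for 1 of these factors. They are RefSeq sequences of GRCh38.p14, cut from windows that run from 250 bases before to 50 bases after an annotated start. All 3 stretches lead up to an internal start and lie within the span of their gene, since longer transcripts begin further upstream. Capitals mark the match, and both strands were searched. The core of the C/EBP-ATF response element, to which ATF4 binds, was searched as TGATGNAA and the core of the antioxidant response element, to which NRF2 binds, as TGACNNNGC. The SLC3A2 stretch is chr11:62881549-62881672 on the plus strand and holds TGACTCAGC, which also contains the AP-1 motif TGACTCA. The SLC1A4 stretch is chr2:64989249-64989400 on the plus strand and holds TTGCATCA, the first element read on the other strand. The SLC1A5 stretch is chr19:46784904-46785014 on the minus strand and holds TGATGCAA. The stretches do not assign a gene to 1 factor. Outside the printed bases, SLC3A2 also has the C/EBP-ATF core, as TTACATCA at chr11:62881736-62881743. SLC1A5 also has the antioxidant core, as GCGAGGTCA at chr19:46787396-46787404.
SLC3A2: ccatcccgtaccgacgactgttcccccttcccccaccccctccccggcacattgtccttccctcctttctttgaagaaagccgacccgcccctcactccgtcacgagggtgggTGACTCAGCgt
SLC1A4: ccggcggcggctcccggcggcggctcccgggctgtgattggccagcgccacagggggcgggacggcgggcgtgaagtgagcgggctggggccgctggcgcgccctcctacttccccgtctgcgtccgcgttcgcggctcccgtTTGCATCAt
SLC1A5: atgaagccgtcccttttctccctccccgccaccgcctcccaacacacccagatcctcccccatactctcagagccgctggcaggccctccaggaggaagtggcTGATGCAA
Of the 24 tested transporters, 20 had at least 1 window in the RefSeq table, 41 windows in all, and SLC7A2, SLC7A11, SLC38A3 and SLC43A3 had none. The C/EBP-ATF core was in 6 of the 41 windows (14.6%), against 3.62% of all 35116 windows in the table, and these 6 belonged to SLC1A3, SLC1A4, SLC1A5, SLC3A2, SLC7A1 and SLC38A1. The antioxidant core was in 6 windows (14.6%), against 13.3% of all windows, those of SLC1A3, SLC1A5, SLC3A2, SLC7A1, SLC7A6 and SLC7A7. Holders of a core did not all rise in DHN against NC, where 12 of the 24 tested transporters were called higher. SLC38A1 fell by 0.22, SLC7A7 was not called, and the higher calls of SLC1A3, SLC7A1 and SLC7A6 were lost in some alternatives. Whether these letters bear on the changes was not tested. A match is a description of these letters and not a measured binding site, and windows of 1 gene can overlap.

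The libraries held between 12381071 (DHN 1) and 27526206 counts (DHN-A 1), and levels are given as CPM, counts per 1000000 counts of the scaled library. Replicates varied beyond counting noise by 4.6%, and every pair of replicates differed by more than counting noise. The first principal component took 33.9% of the variance and placed NC-A 1 at 65.12, apart from 12.49 for NC-A 2 and 10.42 for NC-A 3. Counts and calls on NC-A without it are given with the comparisons. Of 20 lens marker genes, 9 were tested. PAX6, SIX3, CDH2 and GJA1 had from 151 to 5642 counts per library. The lens factors FOXE3, MAF and PITX3 and the water channel AQP1 had at most 10 counts in any library, and the lens crystallin CRYAA and the fibre cell proteins MIP and LIM2 had 3 counts or fewer in every library. The summed level of the lens markers was 376.8 to 391.8 CPM in DHN-A, 332.9 to 353.6 CPM in DHN, 408.8 to 413.5 CPM in NC-A and 408.3 to 427.8 CPM in NC. Most of this sum was CDH2 and GJA1, with means of 166.3 and 112.1 CPM in DHN and 236.4 and 134.7 CPM in NC. The listed lens markers moved in both directions, so the sum does not speak for each of them. PAX6 was at 29.8 CPM in DHN and 25.2 CPM in NC, and the crystallin CRYAB at 10.8 and 0.704 CPM. Fibroblast markers, 6 of 8 tested and led by COL1A1, had summed levels of 1194 to 1263 CPM in DHN-A, 819.8 to 871.8 CPM in DHN, 1210 to 1217 CPM in NC-A and 1383 to 1462 CPM in NC, with LUM and DCN at 5 counts or fewer. Immune, keratinocyte and pigment cell markers summed to at most 3.15, 38.2 and 3.05 CPM in any library. The keratinocyte sum was almost all KRT10, with means of 36.06 CPM in DHN and 30.25 CPM in NC, while KRT5, KRT14 and KRT1 had at most 7 counts. The part of the lens and fibroblast marker differences in the results on transporters was not tested, and in such bulk samples fewer cells of a kind and less RNA per cell cannot be told apart.

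Levels between genes are compared as CPM per kb of the deposited gene length. SLC1A5, the sodium-dependent glutamine exchanger ASCT2, was highest at 60.5 ± 3.12 CPM per kb in NC (SD, n = 3). It was followed by SLC38A2, the sodium-coupled carrier SNAT2, at 40.0 ± 2.07, SLC3A2 at 23.2 ± 1.07, SLC7A1, the cationic carrier CAT1, at 19.6 ± 0.902, SLC38A1, the carrier SNAT1, at 18.5 ± 0.544 and SLC38A10 at 13.0 ± 0.670 CPM per kb. The libraries of each of these genes lay clear of those of the next gene in the order, except that SLC7A1 and SLC38A1 overlapped. SLC43A3 and SLC1A1 followed at 7.77 and 7.75 CPM per kb and could not be ordered. The lowest of the 24 were SLC1A3, SLC38A4 and SLC38A3, at 0.316, 0.252 and 0.0275 CPM per kb in NC.

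**Figure D1:**
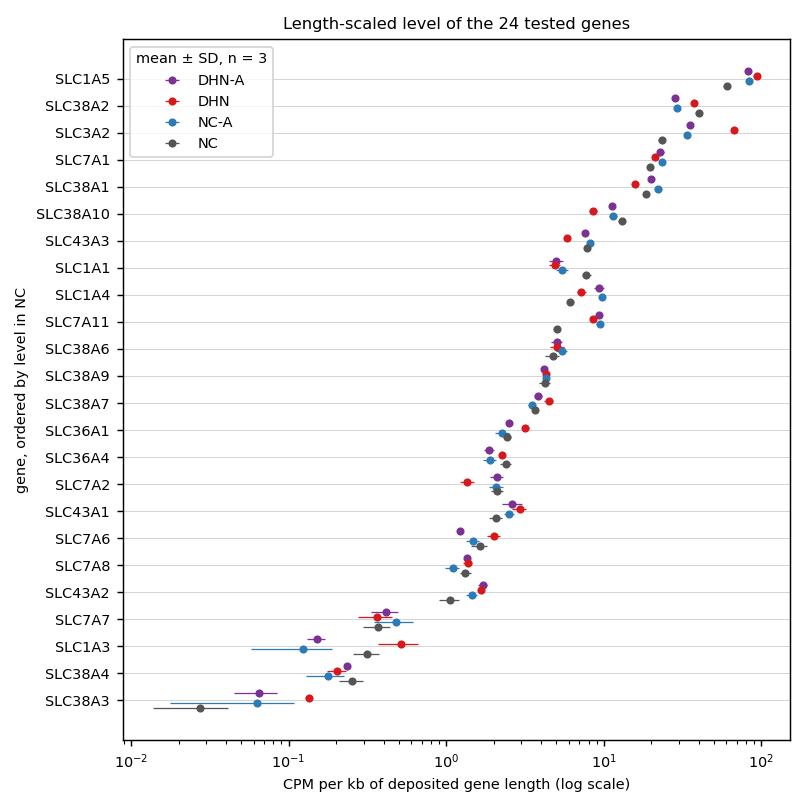
Mean level of each of the 24 tested transporter genes in CPM per kb of gene length, on a log axis, with bars for the SD over 3 libraries. Genes are ordered from the highest level in NC (SLC1A5, 60.5) to the lowest (SLC38A3, 0.0275), and the 4 groups are shown as coloured points on each row.

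With asparagine present, 1 of the 24 transporters passed the test for a change with 1,2-DHN, and without asparagine 18 did. In DHN against NC, 12 transporters rose and 6 fell (edgeR quasi-likelihood test, adjusted p under 0.05), against 38.7% of all tested genes called in this comparison, 19.7% higher and 19% lower. SLC38A3 is among the 12 and passed the filter only through DHN, the group where it was high. The median log2 fold change was 0.11 for the transporters and 0.0073 for all tested genes. Of the 24, 17 had groups that did not overlap, against 46.2% of all tested genes. In NC-A against NC, 7 rose and 5 fell, against a background of 20.2% called (9.32% higher, 10.9% lower). The median was 0.050 for the transporters and 0.0031 for all genes, and 13 did not overlap, against 33.7% of all genes. Without NC-A 1, SLC3A2, SLC7A11, SLC1A5, SLC1A4, SLC43A2, SLC7A1 and SLC38A1 were still called higher (log2 fold changes of 0.21 to 0.87) and SLC1A1, SLC1A3, SLC38A2 and SLC36A4 lower (-1.44 to -0.32), while SLC38A10 lost its call. In DHN-A against DHN, 6 rose and 8 fell, against a background of 41.7% called (20.9% higher, 20.8% lower). The medians were -0.00085 for the transporters and 0.0091 for all genes, and 16 did not overlap, against 51.3% of all genes. In DHN-A against NC-A, 0 rose and 1 fell with edgeR, where 2.1% of all genes were called (0.805% higher, 1.29% lower). At an unadjusted p under 0.05, 2 were higher and 2 lower, and DESeq2 called 0 higher and 1 lower. That gene was SLC38A1, the other log2 fold changes ran from -0.26 to 0.40, and 8 of the 24 had groups without overlap, against 18.4% of all genes. These comparisons share groups, so their changes are not independent of each other. The filter needs counts in at least 1 group, so the counts of calls are over the genes that passed it and not over all 40.

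**Figure D2:**
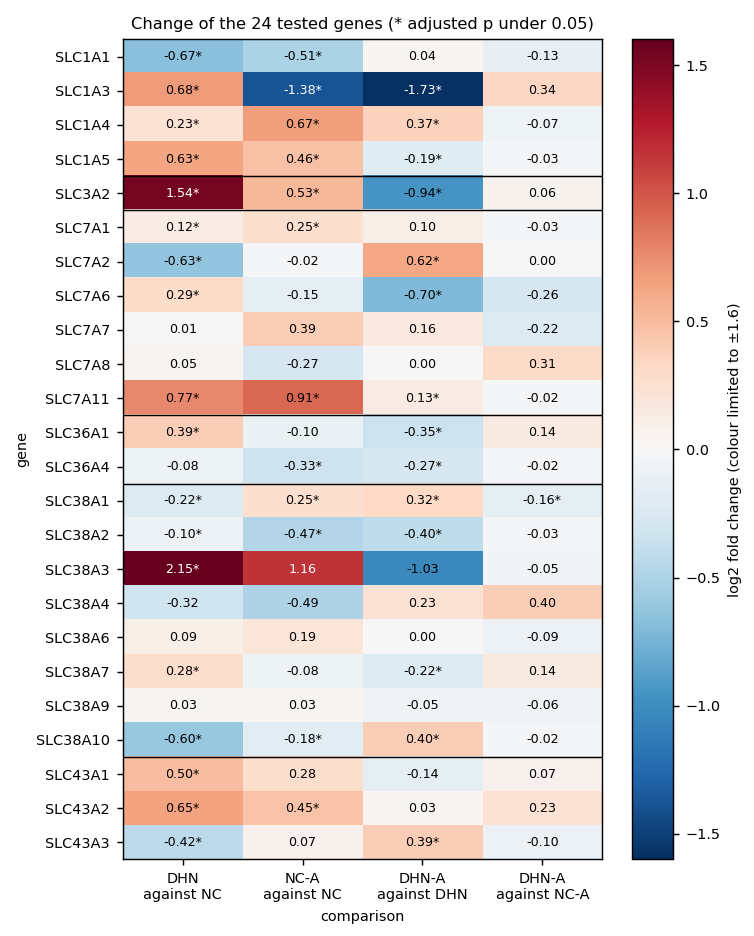
Log2 fold changes of the 24 tested transporters, ordered by family, in 4 comparisons, with an asterisk where the edgeR adjusted p is under 0.05. Red is higher and blue lower in the group named first, and the last column, DHN-A against NC-A, has 1 asterisk, at SLC38A1 (-0.16).

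The interaction term, the 1,2-DHN change with asparagine minus the 1,2-DHN change without it, tests that difference for each gene. It passed for 10 of the 24 transporters, 4 positive and 6 negative, against 25.7% of all genes (13.2% positive, 12.5% negative). The 6 negative ones were SLC3A2, SLC7A11, SLC1A5, SLC7A6, SLC43A2 and SLC1A4, all of which rose in DHN against NC. The 4 positive ones were SLC7A2, SLC38A10, SLC1A1 and SLC43A3, all of which fell in DHN against NC. These opposite signs are no separate result. The term subtracts the change in DHN against NC, so they follow wherever the change with asparagine is small. For the other 14 no difference was shown, and their intervals were wide for the rarest genes: SLC38A3 had an interaction value of -2.19 ± 0.964 (SE, edgeR adjusted p = 0.0916). The counts were the same, 4 and 6, when NC-A 1 was left out.

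**Figure D3:**
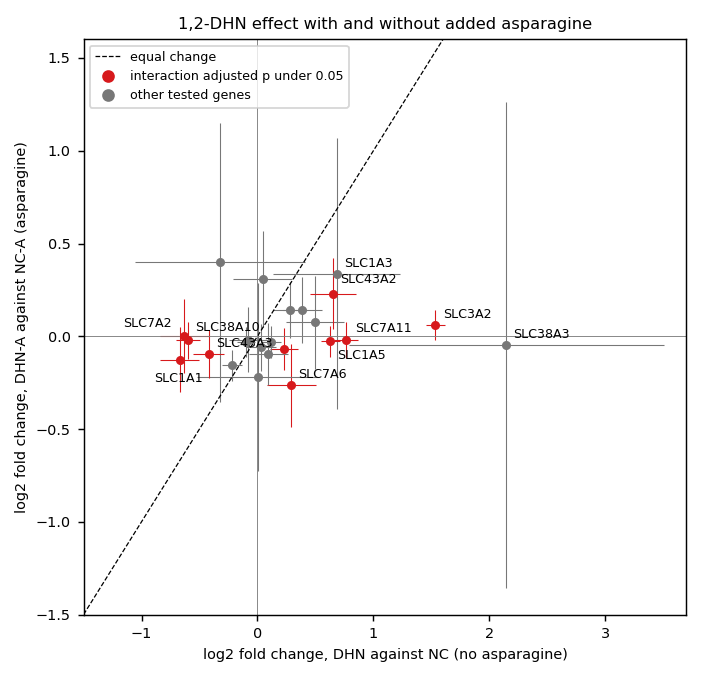
Log2 fold change of each tested transporter in DHN against NC (horizontal) and in DHN-A against NC-A (vertical), with lines for the 95% confidence intervals and a dashed line of equal change. Red points are the 10 genes whose interaction passed, and SLC3A2 lies at 0.06 with asparagine and at 1.54 without it.

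SLC3A2, on chromosome 11 from 62856102 to 62888875 (plus strand), encodes the heavy chain 4F2hc (CD98). It had 184.6, 180.7 and 179.5 CPM in DHN-A, 355.4, 336.8 and 354.0 CPM in DHN, 174.6, 175.8 and 172.3 CPM in NC-A, and 123.2, 113.9 and 123.8 CPM in NC. All 3 DHN libraries stood above all 9 others and all 3 NC libraries below them. SLC3A2 rose by 1.54 ± 0.040 on the log2 scale in DHN against NC (SE, edgeR adjusted p = 2.03e-32), a fold of 2.90, and by 0.53 ± 0.041 in NC-A against NC. It fell by 0.94 ± 0.039 in DHN-A against DHN (adjusted p = 1.43e-24). In DHN-A against NC-A it was at 0.060 ± 0.040 (adjusted p = 0.581), although the libraries of both groups did not overlap. Its interaction value was -1.48 ± 0.057 (adjusted p = 3.64e-25), the smallest p among the 24 transporters.

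SLC7A11, on chromosome 4 from 138164097 to 138242349 (minus strand), encodes the light chain xCT, which takes up cystine in exchange for glutamate. It had 88.8, 89.7 and 91.7 CPM in DHN-A, 84.5, 80.4 and 82.4 CPM in DHN, 96.4, 87.1 and 90.2 CPM in NC-A, and 50.2, 49.6 and 45.7 CPM in NC. Every library that had received either agent lay above every NC library. SLC7A11 rose by 0.77 ± 0.051 in DHN against NC (edgeR adjusted p = 4.16e-17) and by 0.91 ± 0.052 in NC-A against NC (adjusted p = 1.73e-18, and 0.87 without NC-A 1). In DHN-A against DHN it rose by 0.13 ± 0.048 (adjusted p = 0.0266), and in DHN-A against NC-A it was at -0.018 ± 0.048. SLC7A11-AS1, which shares 8.97% of the SLC7A11 exon bases on the other strand, rose by 1.72 ± 0.290 in DHN against NC and by 1.503 ± 0.301 in NC-A against NC. The libraries were stranded, but the sources used here do not say whether counting used the strand.

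SLC7A6, on chromosome 16 from 68264516 to 68301823 (plus strand), encodes a light chain that exchanges cationic for neutral amino acids. Its levels were 8.91, 9.63 and 9.34 CPM in DHN-A, 16.6, 15.3 and 13.8 CPM in DHN, 12.3, 11.1 and 10.3 CPM in NC-A, and 11.8, 14.1 and 11.2 CPM in NC. The DHN-A libraries were the lowest of the 12, and the DHN and NC ranges overlapped by 1 library of each. SLC7A6 fell by 0.70 ± 0.105 in DHN-A against DHN (edgeR adjusted p = 3.48e-07) and rose by 0.29 ± 0.105 in DHN against NC (adjusted p = 0.0231). The second call was lost with DESeq2, without the filter and without any of DHN 1, DHN 2, NC 1 and NC 3 (adjusted p = 0.0619 to 0.151). Its exons share 55.6% of their bases with genes on the other strand, among them SLC7A6OS, which itself rose by 0.43 ± 0.097 in DHN against NC and fell in DHN-A against DHN, by 0.31 ± 0.093. The remaining tested light chains, SLC7A7 (y+LAT1) and SLC7A8 (LAT2), were called in none of the 5 tests, with pairwise log2 fold changes from -0.27 to 0.39. SLC7A7 had only 21 to 59 counts per library, so moderate changes could have been missed.

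SLC7A5, the large neutral light chain LAT1, had only 0 to 8 counts per library. Its counts were 8, 3 and 1 in DHN-A, 4, 0 and 1 in DHN, 0, 2 and 2 in NC-A, and 2, 1 and 0 in NC, so it was not tested and no change could be seen at this depth. A near-identical copy of part of it is the pseudogene SLC7A5P1 (chromosome 16, 29613104 to 29613640). It matched 537 bases of the 4537-base SLC7A5 transcript at 96.6% identity. Another copy, SLC7A5P2, matched 536 bases at 96.3% identity and had 0 counts in every library. Whether reads of that stretch were lost or split between such copies was not tested, nor was any other cause of the low SLC7A5 counts. SLC7A5P1, named after its values were seen, had 26, 24 and 24 counts in DHN-A, 28, 58 and 78 in DHN, 12, 11 and 16 in NC-A, and 12, 11 and 19 in NC. It rose by 2.07 ± 0.300 in DHN against NC (edgeR adjusted p = 1.72e-07) and fell in DHN-A against DHN, by 1.62 ± 0.276. Whether these counts stem from SLC7A5 was not tested.

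Heavy and light chain messages were also set against each other. The 6 light chains that pair with SLC3A2, namely SLC7A5, SLC7A6, SLC7A7, SLC7A8, SLC7A10 and SLC7A11, were summed as CPM per kb, with SLC7A11 making up 59.5% to 76.2% of the sum. SLC3A2 over that sum was 2.95, 2.82 and 2.74 in DHN-A, 5.33, 5.35 and 5.71 in DHN, 2.54, 2.79 and 2.71 in NC-A, and 2.79, 2.54 and 3.04 in NC. The DHN libraries stood above all others, while the other groups overlapped one another. The mean was 5.46 ± 0.211 in DHN and 2.79 ± 0.246 in NC (SD, n = 3 each; exact two-sided permutation test, p = 0.1, the smallest that 3 against 3 allows). It was 2.84 ± 0.107 in DHN-A and 5.46 ± 0.211 in DHN (exact p = 0.1). For NC-A, at 2.68 ± 0.126, against NC the exact p was 0.6, and for DHN-A against NC-A it was 0.2. The sum itself was close in DHN-A (12.1 to 12.7), DHN (11.98 to 12.87) and NC-A (12.2 to 13.3), and lower in NC (7.87 to 8.65 CPM per kb). Since SLC7A5 is hardly counted, the ratio is one of counted messages only.

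**Figure D4:**
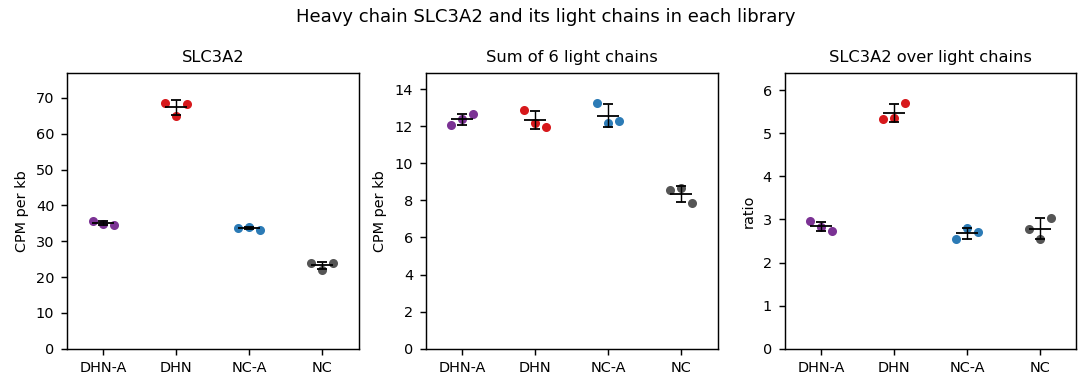
SLC3A2, the sum of its 6 light chains (both in CPM per kb) and their ratio in each library, with the mean and SD of 3 libraries per group. The ratio lies between 5.33 and 5.71 in DHN and between 2.54 and 3.04 in the 9 other libraries, whereas the light chain sum separates NC from the 3 other groups.

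The neutral carriers of SLC1 rose with either agent. SLC1A5, on chromosome 19 from 46774883 to 46788594 (minus strand), had 272.7, 282.9 and 262.5 CPM in DHN-A, 302.2, 303.0 and 328.9 CPM in DHN, 278.8, 284.9 and 270.4 CPM in NC-A, and 202.8, 190.6 and 211.3 CPM in NC. NC was the lowest and DHN the highest group without overlap, and DHN-A and NC-A lay between and overlapped. SLC1A5 rose by 0.63 ± 0.042 in DHN against NC (edgeR adjusted p = 3.21e-17) and by 0.46 ± 0.042 in NC-A against NC (adjusted p = 7.17e-12), and fell in DHN-A against DHN, by 0.19 ± 0.041. Of its exon bases, 23.8% are shared with annotated genes on the other strand.

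SLC1A4, on chromosome 2 from 64988477 to 65023865 (plus strand), encodes ASCT1, a carrier of alanine, serine, cysteine and threonine. Its levels were 63.5, 69.6 and 61.0 CPM in DHN-A, 51.0, 52.7 and 46.4 CPM in DHN, 67.0, 68.5 and 67.7 CPM in NC-A, and 40.9, 41.7 and 45.2 CPM in NC. Both groups with asparagine stood above both groups without it. SLC1A4 rose by 0.23 ± 0.060 in DHN against NC and by 0.67 ± 0.060 in NC-A against NC (edgeR adjusted p = 0.00202 and 4.48e-12). It also rose in DHN-A against DHN, by 0.37 ± 0.057.

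The tested acidic carriers of SLC1 were SLC1A1 and SLC1A3. SLC1A1, on chromosome 9 from 4490444 to 4587469 (plus strand), encodes the glutamate and cysteine carrier EAAT3. It had 18.7, 22.3 and 18.6 CPM in DHN-A, 19.7, 17.7 and 20.8 CPM in DHN, 23.0, 19.3 and 22.7 CPM in NC-A, and 28.5, 32.5 and 31.4 CPM in NC. All 9 libraries with either agent lay below all 3 NC libraries, and those 9 overlapped between groups. SLC1A1 fell by 0.67 ± 0.085 in DHN against NC (edgeR adjusted p = 7.29e-09) and by 0.51 ± 0.085 in NC-A against NC (adjusted p = 1.40e-05), and was at 0.037 ± 0.086 in DHN-A against DHN.

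SLC1A3, on chromosome 5 from 36606355 to 36688334 (plus strand), encodes the glutamate carrier EAAT1 and was rare, with 6 to 65 counts per library. Its levels were 1.04, 0.803 and 0.992 CPM in DHN-A, 4.19, 3.10 and 2.37 CPM in DHN, 0.813, 1.16 and 0.345 CPM in NC-A, and 2.36, 1.98 and 1.605 CPM in NC. The groups with asparagine lay below the groups without it in every library. SLC1A3 fell by 1.73 ± 0.287 in DHN-A against DHN (edgeR adjusted p = 2.55e-06) and by 1.38 ± 0.341 in NC-A against NC (adjusted p = 0.00242, and 0.0527 with a fall of 0.98 without NC-A 3). Its rise of 0.68 ± 0.272 in DHN against NC (adjusted p = 0.0416) was lost in 6 alternatives, among them DESeq2 (adjusted p = 0.120) and the fit without DHN 1 (0.236). The other acidic carriers, SLC1A2, SLC1A6 and SLC1A7, did not pass the filter.

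The SLC38 carriers moved in different directions. SLC38A2, on chromosome 12 from 46358189 to 46372867 (minus strand), is the amino acid carrier best known for adaptive control in starved cells. It had 182.8, 183.3 and 186.8 CPM in DHN-A, 244.4, 243.9 and 241.5 CPM in DHN, 185.8, 189.2 and 190.3 CPM in NC-A, and 258.2, 274.8 and 248.1 CPM in NC. Both asparagine groups lay below both groups without it. SLC38A2 fell by 0.40 ± 0.039 in DHN-A against DHN and by 0.47 ± 0.040 in NC-A against NC (edgeR adjusted p = 7.79e-12 and 9.93e-13). Its fall of 0.098 ± 0.039 in DHN against NC (adjusted p = 0.0409) was lost in 9 alternatives, including the replicate block (adjusted p = 0.0516).

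SLC38A1, nearby on chromosome 12 from 46183063 to 46270017 (minus strand), carries glutamine and asparagine as well but moved the other way with asparagine. Its levels were 197.3, 194.6 and 203.4 CPM in DHN-A, 152.1, 164.3 and 160.5 CPM in DHN, 235.0, 212.9 and 216.1 CPM in NC-A, and 184.6, 191.2 and 180.4 CPM in NC. No pair of its groups overlapped. SLC38A1 rose by 0.32 ± 0.042 in DHN-A against DHN and by 0.25 ± 0.042 in NC-A against NC, and fell by 0.22 ± 0.042 in DHN against NC (edgeR adjusted p = 2.01e-08, 9.30e-06 and 3.25e-05). It was the only transporter called in DHN-A against NC-A, where it fell by 0.16 ± 0.041 (adjusted p = 0.0290). That call was lost without any of DHN-A 1, DHN-A 2, NC-A 1 and NC-A 3 and without the filter (adjusted p = 0.0600 to 0.248).

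SLC38A10, on chromosome 17 from 81245000 to 81295547 (minus strand), is a carrier whose substrates are less settled. It had 88.8, 90.9 and 87.9 CPM in DHN-A, 66.2, 65.0 and 71.7 CPM in DHN, 85.5, 90.0 and 95.6 CPM in NC-A, and 102.6, 97.5 and 108.1 CPM in NC. DHN was the lowest and NC the highest group without overlap. SLC38A10 fell by 0.60 ± 0.050 in DHN against NC (edgeR adjusted p = 7.33e-14), rose by 0.40 ± 0.050 in DHN-A against DHN (adjusted p = 7.23e-09) and fell by 0.18 ± 0.050 in NC-A against NC (adjusted p = 0.00594, and 0.0629 without NC-A 1 or 0.0674 without NC 3).

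SLC38A3, on chromosome 3 from 50205246 to 50221486 (plus strand), encodes the system N glutamine carrier SNAT3 and was close to absent. It had 6, 9 and 5 counts in DHN-A, 7, 11 and 11 in DHN, 2, 2 and 8 in NC-A, and 1, 2 and 4 in NC. Its DHN libraries alone brought it past the filter, so its fitted log2 fold change of 2.15 ± 0.675 in DHN against NC (SE) describes these few reads only. It was called in no other comparison. SLC38A7, a lysosomal exporter of glutamine and asparagine, rose by 0.28 ± 0.074 in DHN against NC, with 29.7 ± 1.81 CPM in DHN and 24.5 ± 0.895 CPM in NC (SD, n = 3 each). It fell by 0.22 ± 0.072 in DHN-A against DHN, a call that was lost without DHN-A 2 or DHN 3 (adjusted p = 0.0597 and 0.0979). SLC38A9, the lysosomal arginine sensor, had 36.6 ± 0.503 CPM in DHN-A, 37.97 ± 0.589 CPM in DHN, 38.2 ± 0.877 CPM in NC-A and 37.3 ± 3.05 CPM in NC, and was not called in any comparison. SLC38A4 and SLC38A6 were not called either, with pairwise log2 fold changes from -0.49 to 0.40 and from -0.095 to 0.19. SLC38A4 was rare, with 7 to 26 counts per library, so all but large changes could have been missed.

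**Figure D5:**
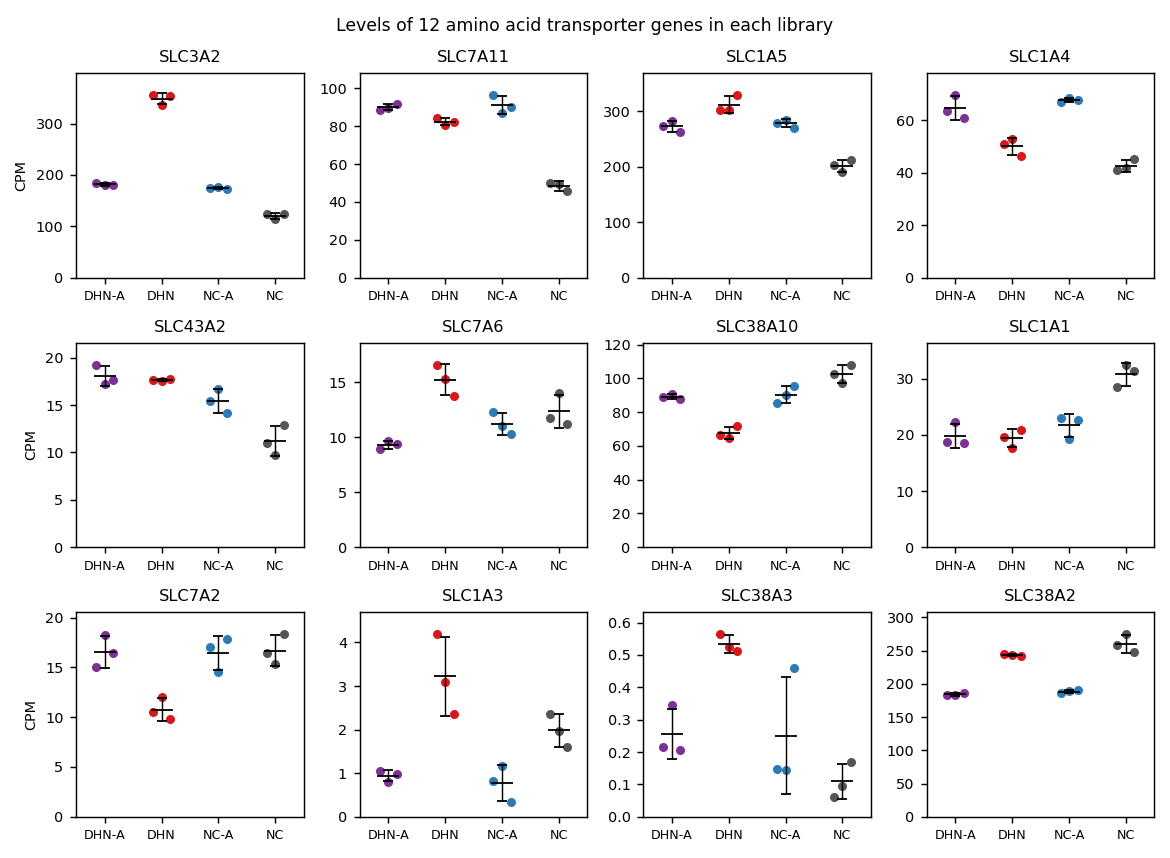
Levels in CPM of 12 transporter genes in each library, with the mean and SD of 3 libraries per group and axes that start at 0. They are the 11 genes called with a log2 fold change of at least 0.5 in size in a pairwise comparison, plus SLC38A2; SLC3A2 is highest in DHN, SLC7A11 and SLC43A2 are lowest in NC, and SLC38A2 is lowest in both asparagine groups.

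The cationic carriers were SLC7A1 and SLC7A2, which bring arginine and lysine into the cell. SLC7A2, on chromosome 8 from 17497088 to 17570573 (plus strand), had 14.99, 18.2 and 16.5 CPM in DHN-A, 10.5, 12.01 and 9.81 CPM in DHN, 17.0, 14.5 and 17.9 CPM in NC-A, and 16.4, 15.3 and 18.3 CPM in NC. The 3 DHN libraries lay below the 9 others, whose groups overlapped. SLC7A2 fell by 0.63 ± 0.104 in DHN against NC (edgeR adjusted p = 2.23e-06), rose by 0.62 ± 0.102 in DHN-A against DHN (adjusted p = 2.35e-06) and was at -0.018 ± 0.101 in NC-A against NC. The far more abundant SLC7A1 had 175 ± 9.01 CPM in DHN-A, 163 ± 3.06 CPM in DHN, 179 ± 4.80 CPM in NC-A and 151 ± 6.93 CPM in NC (SD, n = 3 each). It rose by 0.25 ± 0.043 in NC-A against NC (adjusted p = 2.13e-05) and by 0.12 ± 0.043 in DHN against NC (adjusted p = 0.0236, lost without the filter and without DHN 3 or NC 3, at 0.0669 to 0.178).

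Of the SLC43 family all 3 genes were tested. SLC43A2, on chromosome 17 from 1569267 to 1628886 (minus strand), encodes LAT4, which lets large neutral amino acids pass without an exchange partner. It had 19.3, 17.3 and 17.6 CPM in DHN-A, 17.7, 17.5 and 17.8 CPM in DHN, 15.5, 16.7 and 14.2 CPM in NC-A, and 11, 9.70 and 12.9 CPM in NC. Every library with either agent lay above every NC library. SLC43A2 rose by 0.65 ± 0.099 in DHN against NC and by 0.45 ± 0.103 in NC-A against NC (edgeR adjusted p = 4.43e-07 and 0.000948). SLC43A1 (LAT3), of the same kind, rose by 0.50 ± 0.126 in DHN against NC and was at 0.28 ± 0.131 in NC-A against NC (adjusted p = 0.130). SLC43A3, a nucleobase carrier despite its family, fell by 0.42 ± 0.066 in DHN against NC, with 26.2 ± 0.365 CPM in DHN and 35.1 ± 1.49 CPM in NC (SD, n = 3 each), and rose by 0.39 ± 0.065 in DHN-A against DHN. It shares 29.9% of its exon bases with AP000781.2 on the same strand, so its counts are uncertain.

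In the SLC36 family, SLC36A1 (PAT1) exports small amino acids from lysosomes. It had 17.4 ± 0.621 CPM in DHN-A and 22.1 ± 1.15 CPM in DHN (SD, n = 3 each). Its level was 15.8 ± 1.58 CPM in NC-A and 17.0 ± 0.914 CPM in NC. It rose by 0.39 ± 0.085 in DHN against NC and fell in DHN-A against DHN, by 0.35 ± 0.083 (edgeR adjusted p = 0.000215 and 0.000572). SLC36A4 (PAT4) had 18.2 ± 1.33 CPM in DHN-A, 22.0 ± 0.610 CPM in DHN, 18.4 ± 1.74 CPM in NC-A and 23.2 ± 1.97 CPM in NC. It fell by 0.27 ± 0.083 in DHN-A against DHN and by 0.33 ± 0.087 in NC-A against NC (adjusted p = 0.00663 and 0.00422, with 0.0501 for the first without DHN-A 2).

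Sorted by what they carry, the acidic, the small neutral and the cationic carriers each held calls in both directions in DHN against NC, where 38.7% of all tested genes were called. The acidic and the cationic class had 2 tested genes each. Their higher calls, SLC1A3 and SLC7A1, were lost in 6 and 3 alternatives. The other classes of substrate held calls in 1 direction or none, but none of them had more than 2 tested genes. Those with 1 or 0 tested genes could not hold both directions, so the classes cannot be set apart by this. Of 7 genes for sodium-dependent carriers of small neutral amino acids and glutamine, 6 were tested. In DHN against NC, SLC1A4 and SLC1A5 were called higher, as was SLC38A3, which passed the filter only through DHN, and SLC38A1 and SLC38A2 fell. In NC-A against NC, SLC1A4, SLC1A5 and SLC38A1 rose and SLC38A2 fell. Of 7 genes whose products are known to carry asparagine, 6 were tested, and in DHN against NC 3 rose, SLC38A3 again among them, and 2 fell. In NC-A against NC 2 of these rose and 1 fell, against 20.2% of all genes called. In DHN-A against DHN 1 rose and 3 fell, against 41.7% of all genes, and in DHN-A against NC-A SLC38A1 fell, where 2.1% of all genes were called. Of the 3 genes for cationic carriers, 2 were tested, and in DHN against NC SLC7A1 rose while SLC7A2 fell. Both tested large neutral facilitators, SLC43A1 and SLC43A2, rose in DHN against NC.

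The 16 transporters below the filter had 0 to 83 counts in all 12 libraries together and at most 13 in any library. SLC38A8 had 0, which allows up to 3 counts. Beside SLC7A5 and the acidic carriers they were SLC3A1, the heavy chain of kidney and intestine, with its light chains SLC7A9 and SLC7A13, the cationic carrier SLC7A3, SLC7A4, SLC7A10, SLC7A14, SLC36A2, SLC36A3, SLC38A5 and SLC38A11. At such counts neither their absence nor a change can be read.

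Other genes of amino acid transport were taken from a list of 32 outside these families, of which 24 were tested. In DHN against NC 5 rose and 8 fell, against 38.7% of all genes called, with a median log2 fold change of -0.056 for the list and 0.0073 for all genes. In NC-A against NC 1 rose and 6 fell, against 20.2% of all genes. In DHN-A against DHN 6 rose and 8 fell, against 41.7%. In DHN-A against NC-A, where 2.1% of all genes were called, 1 rose (SLC6A6, by 0.27 ± 0.061). In that comparison 0 fell with edgeR or DESeq2, with 2 lower at an unadjusted p under 0.05. SLC6A6 was among those that fell with asparagine, by 1.21 ± 0.059 in NC-A against NC and by 0.92 ± 0.055 in DHN-A against DHN. SLC6A13, a GABA and taurine carrier that is among the 5, was at a low 1.62 ± 0.571 CPM in DHN and 0.215 ± 0.0652 CPM in NC (SD, n = 3 each). It passed the filter through DHN, to which 3 of the 4 libraries at the level of the filter belonged, so its fitted log2 fold change of 2.83 is a description. SLC15A3, a lysosomal peptide and histidine carrier, fell in DHN against NC by 1.31 ± 0.132, with 3.98 ± 0.263 CPM in DHN and 9.85 ± 0.934 CPM in NC. SLC25A38, a mitochondrial glycine carrier, rose by 0.46 ± 0.060 in DHN against NC. In DHN-A against DHN SLC15A3 rose by 1.15 ± 0.131.

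The genes through which amino acids are sensed by mTORC1 were counted on a list of 35, of which 32 were tested. In DHN against NC 11 rose and 7 fell, against 38.7% of all genes called, and in NC-A against NC 6 rose and 2 fell, against 20.2%. In DHN-A against DHN 11 rose and 9 fell, against 41.7%. In DHN-A against NC-A 0 were called by edgeR or DESeq2, against 2.1% of all genes by edgeR, with 2 higher and 3 lower at an unadjusted p under 0.05. The median log2 fold change in DHN against NC was -0.00053 for the list and 0.0073 for all genes. SESN2, a sestrin that senses leucine and restrains mTORC1, had 69.9 ± 2.58 CPM in DHN-A, 126.2 ± 2.01 CPM in DHN, 72.7 ± 2.34 CPM in NC-A and 47.4 ± 1.91 CPM in NC (SD, n = 3 each). Like SLC3A2 it was highest in DHN and lowest in NC. FLCN, which acts on the Rag GTPases, rose by 0.60 ± 0.065 in DHN against NC, and RRAGA, one of these GTPases, fell by 0.43 ± 0.062.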

How the data were processed

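Stranded libraries were built from total RNA of SRA01/04 cells, as the labels' protocols state, and reads were aligned to hg38 with Bowtie, per the submitters' processing notes. The sources used here do not name the aligner's version, the counting tool, its strand setting or its annotation. The authors deposited raw counts per gene symbol for 12 libraries with another value, a gene length, for each symbol. Samples were grouped by the labels, 3 per group.

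Genes passing filterByExpr were fitted with edgeR 4.0.16 (R 4.3.3): trimmed mean of M values scaling, 1 mean per group over all 12 libraries, robust quasi-likelihood test, and Benjamini-Hochberg adjustment over all 17889 tested genes, with calls at an adjusted p under 0.05. Standard errors (SE) were derived from each fold change and its F statistic and are approximate. The 5 tests were DHN against NC, NC-A against NC, DHN-A against DHN, DHN-A against NC-A and the interaction. The procedure was tested on simulated data. CPM were computed here from the deposited counts, and CPM per kb divide them by the deposited length. Positions come from GENCODE release 29 (GRCh38), which held all 40 symbols; 22 of the 40 deposited lengths equal its exon union. Copies of SLC7A5 were aligned with BLAST 2.17.0.

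Members and gene lists were chosen with earlier results of these data known. Every tested member is named. Those called with a log2 fold change of at least 0.5 in size in a pairwise comparison have their value in every library, as have a few other members. From the other lists, only genes among the 6 largest called changes in DHN against NC, or a single call in a comparison, were named. Intervals are at 95%. Alternatives were relative log expression scaling, DESeq2 1.42.0, no filter, a replicate block, a fit restricted to both groups of a comparison, and omission of single libraries. A few results on named genes are not reported here.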

Additional observations from a re-analysis of the deposited data

Results flagged for a closer look

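For 10 transporters the 1,2-DHN change with asparagine (DHN-A against NC-A) differed from the 1,2-DHN change without it (DHN against NC) by the interaction test of edgeR, against 25.7% of all tested genes. The interaction values on the log2 scale were -1.48 for SLC3A2, -0.79 for SLC7A11, -0.66 for SLC1A5, -0.56 for SLC7A6, -0.42 for SLC43A2 and -0.29 for SLC1A4. They were 0.63 for SLC7A2, 0.58 for SLC38A10, 0.54 for SLC1A1 and 0.32 for SLC43A3. Adjusted p-values ran from 3.64e-25 (SLC3A2) to 0.0185 (SLC43A2). In DHN-A against NC-A, none of these 10 genes was called by edgeR, and SLC7A6 was the farthest from 0 among them at -0.26 ± 0.111 (SE, adjusted p = 0.269).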

How the results depend on the processing

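Of the 55 calls on transporters in the 5 tests, 44 kept their direction and call under every alternative run (17 for a pairwise comparison, 16 for the interaction), 11 lost the call at least once and 0 reversed. The losses fell on small changes or rare genes and are given beside the results; SLC7A11 in DHN-A against DHN lost its call without any of DHN 2, DHN 3, DHN-A 2 and DHN-A 3 (adjusted p = 0.0576 to 0.138), and the interaction of SLC43A2 without the filter, NC 2 or NC-A 2 (0.0699 to 0.0931). With single libraries left out, the transporters called higher and lower were 9 to 13 and 5 to 6 in DHN against NC, 7 to 8 and 4 to 5 in NC-A against NC, 5 to 7 and 6 to 8 in DHN-A against DHN, 0 and 0 to 1 in DHN-A against NC-A, and 4 and 5 to 8 in the interaction. In DHN-A against NC-A the count of fallen transporters was also 0 without the filter, where the split over all genes was 271 higher and 127 lower, against 144 and 231 with it; the cause was not tested. SLC3A2 over its light chains in NC-A minus NC ran from -0.231 to 0.0147 with libraries left out, so its sign is not fixed; this and the other ratio ranges were chosen after seeing the data. No pairing of the samples by replicate number was seen, although 3 libraries per group cannot exclude one. Same-numbered libraries had correlations of -0.176 to 0.229, 1 of 18 over 0.1, and other pairs between groups had -0.267 to 0.291. Of the 12 libraries, 3 were closest to their own number. The replicate block changed 1 call, that of SLC38A2 in DHN against NC (-0.098, adjusted p = 0.0516). Depth limits SLC38A3, SLC38A4, SLC1A3, SLC7A7 and the 16 untested genes.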
